A study of Capra hircus with 36 samples.

Results

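The miRNAs described here are those of the precursors miR-144 and miR-486, 2 precursors that red cells make in large amounts. They were chosen by name, as every row of miR-144, miR-451 or miR-486 with either arm, and this gave 4 of the 1391 mature miRNAs listed. These 4 are chi-miR-144-5p, chi-miR-144-3p, chi-miR-486-5p and chi-miR-486-3p, where chi stands for Capra hircus, and the prefix is left out below. Rows that the study found to match no annotated miRNA carry running numbers of its own and were not taken as members, and miR-451 was not analysed here.

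A miRNA precursor is a short hairpin whose left and right arms each give a mature strand, 5p and 3p, and usually one of them is loaded into Argonaute and kept while the other is lost. miR-144 and miR-451 are cut from a common transcript that the erythroid factor GATA1 turns on, and miR-144 is known for its part in red cell maturation and in the response of red cells to oxidative stress. In the RefSeq annotation of ARS1.2, the genes MIR144 and MIR451 are neighbours with 0 other genes between them. miR-486 lies within the ankyrin gene ANK1, which is used both in red cells and in striated muscle. Both precursors are therefore read in whole tissue as signs of blood, and miR-486 as a sign of muscle too.

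Small RNA was sequenced from 6 tissues (spleen, liver, lung, kidney, heart and longissimus muscle) of 3 Tibetan goats from the high-altitude population, living at about 3000 m, and of 3 goats from the low-altitude population, living at about 600 m and named Chuandong White in the study. All 6 were adult females of about 3 years, and every goat gave every tissue, so each of the 12 combinations of tissue and altitude has 3 libraries, 36 in all. Altitude goes with breed and with how the animals were kept, and these cannot be told apart. The 3 replicates of a group are separate goats, while the 6 tissues of a goat are not independent of each other.

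The values are counts of reads per mature miRNA. They are given here as counts or as RPM, which is the count divided by the library total and multiplied by 1000000. Library totals ran from 7108635 to 14407748 counts, so that 3 counts correspond to 0.208 to 0.422 RPM. The labelled tissues carried their defining miRNAs. The hepatocyte miRNA miR-122 summed over its arms to between 6201 and 179959 RPM in the 6 liver libraries and to at most 209 RPM in any other library. A list of 12 striated muscle miRNAs (miR-1, miR-133, miR-206, miR-208 and miR-499) summed to between 200389 and 555440 RPM in heart and muscle and to at most 10180 RPM elsewhere. Among these 12, the rows miR-133b-5p and miR-133a-3p have the same counts in every library and both enter the sum. In whole tissue, fewer cells of a type and less RNA per cell cannot be told apart.

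Many libraries list a member at 0, and this touches most of the results below. The arms of miR-144 were both at 0 in 16 of the 36 libraries, all 6 of lung and 10 others, and there was no library with only 1 arm at 0. Where miR-144-3p had reads it had at least 110 counts, and where miR-144-5p had reads it had at least 46. Each library therefore had either none or plenty, with nothing in between. Outside lung, the libraries at 0 came from 6 high-altitude and 4 low-altitude samples. Counted by goat, miR-144 was at 0 in 5 tissues of high-altitude goat 3, in 4 of low-altitude goat 3, in 3 of high-altitude goat 1, in 2 of low-altitude goat 1 and in 1 tissue, lung, of each goat numbered 2.

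miR-486-5p was at 0 in 4 libraries, which were kidney, lung and spleen of high-altitude goat 2 and spleen of high-altitude goat 3. A further library, liver of high-altitude goat 1, had 16 counts, and the other 31 had between 3680 and 633027. Another row, a 5p strand classed as matching no annotated miRNA, is called the unmatched row below. In the same 4 libraries it had 6324 counts in kidney, 173373 in lung, and 31965 and 47522 in spleen of goats 2 and 3. That row was at 0 in 31 libraries and had 3 counts in the remaining one, lung of low-altitude goat 3. No library had 20 or more counts of both rows, and of all 1391 rows this was the only 1 with at least 20 counts in each library that lists miR-486-5p at 0 and fewer in all others. The same search for miR-144 gave 0 rows. The 3p arm of its precursor had 2 to 15 counts in those 4 libraries, 9 in the liver library with 16 counts of miR-486-5p, 2 in muscle of low-altitude goat 3 and 0 elsewhere. Whether the reads of the unmatched row are those of miR-486-5p was not tested, and the main tissue and altitude comparisons of miR-486-5p are given with and without them.

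**Figure D1:**
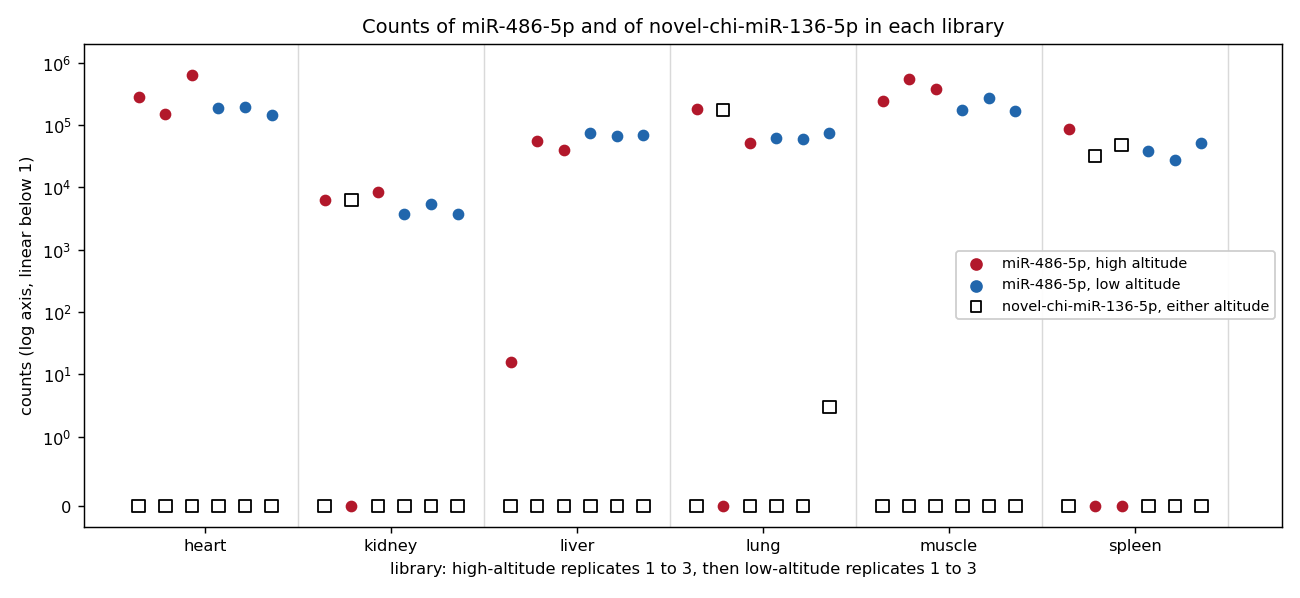
Counts of miR-486-5p (filled circles, red for high and blue for low altitude) and of the unmatched row (open squares, under its name in the files) in each of the 36 libraries, on a log axis that is linear below 1. The 4 libraries with miR-486-5p at 0 are the ones in which the unmatched row reaches 6324 to 173373 counts, and elsewhere it has at most 3.

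Such listed zeros were not particular to the members. Of the 515 miRNAs with at least 100 counts in some library, 70 (13.6%) were at 0 in a library and otherwise never under 20. In 176 rows (12.7% of all), 1 library of a group of 3 was at 0 while another had 100 counts or more. A 0 is given here as a listed 0.

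The members together took between 1.19 and 5.38% of all counts in heart and between 1.38 and 4.31% in muscle. They took 0.0837 to 1.20% in spleen, 0 to 1.88% in lung, 0.0343 to 0.996% in liver and 0.00896 to 0.0758% in kidney. The low ends in spleen, lung, liver and kidney come from libraries in which miR-486-5p is at or near 0. In heart and muscle nearly all of this was miR-486-5p. Its mean over the 36 libraries was 10520 RPM, against 187 RPM for miR-144-3p, 28.1 RPM for miR-144-5p and 17.0 RPM for miR-486-3p.

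**Figure D2:**
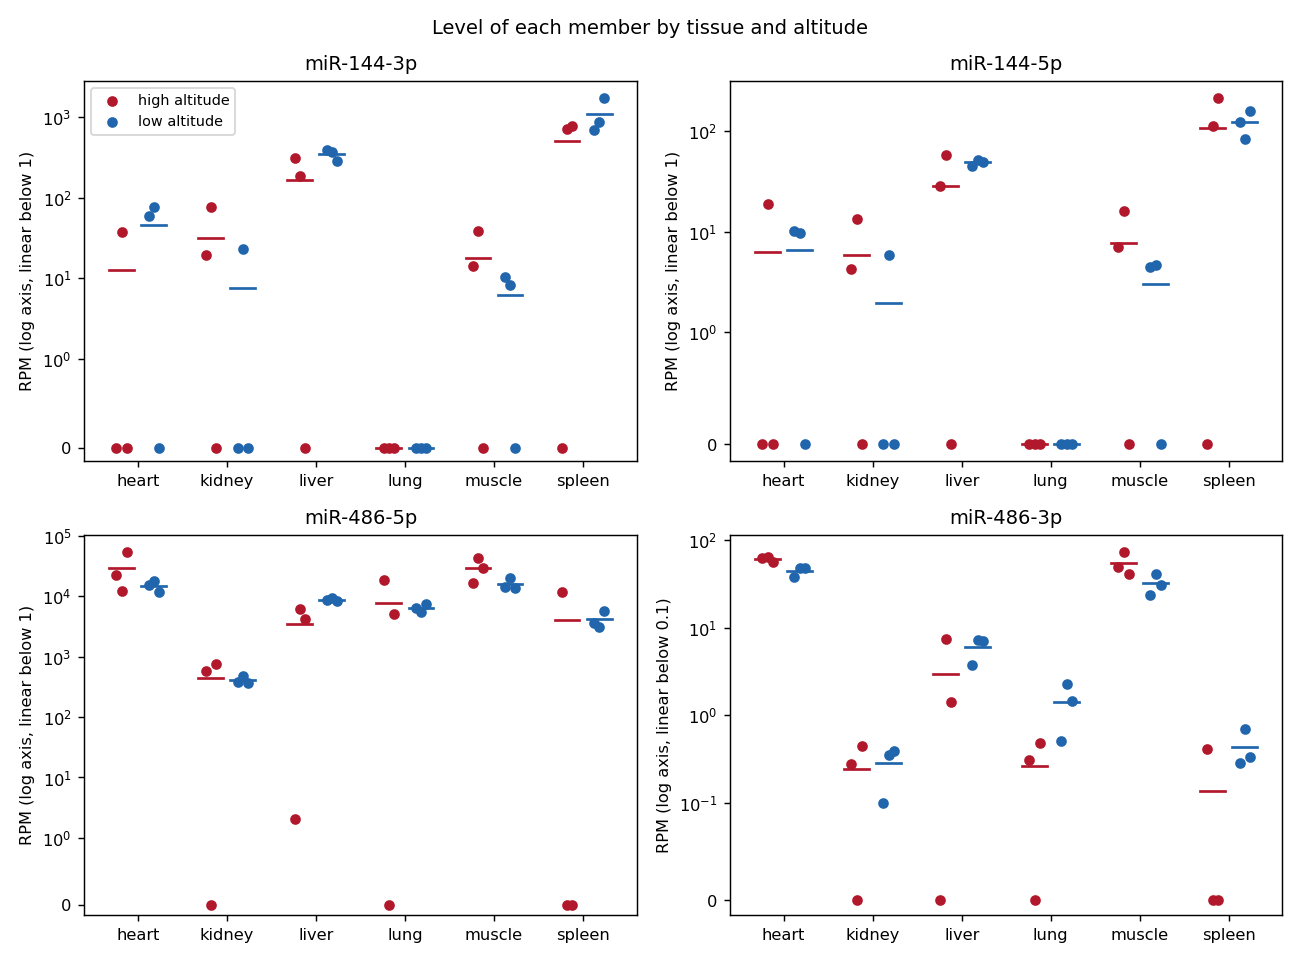
RPM of each member by tissue, on log axes that are linear below 1 RPM (0.1 RPM for miR-486-3p), with 1 point per library, red for the 3 high-altitude and blue for the 3 low-altitude goats, and a bar at the mean of the 3. Both arms of miR-144 are highest in spleen and at 0 in all 6 lung libraries, and both arms of miR-486 are highest in heart and muscle.

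miR-144-3p, the strand of this precursor studied in red cells, was most abundant in spleen, an organ that stores and clears red cells. Its level in spleen was 0, 724 and 788 RPM in high-altitude goats 1, 2 and 3 and 690, 876 and 1717 RPM in low-altitude goats 1, 2 and 3. The tissue mean was 799 ± 549 RPM (SD, n = 6). Apart from the library at 0, all spleen libraries were above every library of any other tissue.

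Liver, which makes blood cells before birth and holds much blood afterwards, came next. There miR-144-3p had 313, 184.6 and 0 RPM in the high-altitude goats and 396, 371 and 290 RPM in the low-altitude goats (mean 259 ± 147, SD, n = 6). Again 1 high-altitude library was at 0, and the others lay above every library of heart, kidney and muscle.

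In heart the values were 0, 37.4 and 0 RPM at high altitude and 59.4, 77.7 and 0 RPM at low altitude. In kidney they were 19.2, 76.2 and 0 RPM at high altitude and 0, 22.7 and 0 RPM at low altitude. In muscle they were 14.3, 38.7 and 0 RPM at high altitude and 10.2, 8.13 and 0 RPM at low altitude. Each of these tissues thus had both libraries with over 100 counts and libraries with none, in both populations. In lung, an organ rich in blood vessels, all 6 libraries were at 0, and 3 counts would have been 0.277 to 0.311 RPM there.

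miR-144-5p, the other strand, had the same leading tissues at a lower level, with muscle and kidney changing places below heart. Its values in spleen were 0, 112 and 210 RPM at high altitude and 123, 83.0 and 158 RPM at low altitude (mean 114 ± 71.0, SD, n = 6). In liver they were 28.1, 57.6 and 0 RPM at high altitude and 45.0, 51.8 and 48.8 RPM at low altitude (mean 38.5 ± 21.3, SD, n = 6). Heart, muscle and kidney averaged 6.46, 5.37 and 3.92 RPM. All 6 lung libraries were at 0.

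The share of miR-144 counts from the 5p arm varied more between tissues than within muscle. It was between 29.2 and 36.4% in the 4 muscle libraries with reads. It was between 8.41 and 21.05% in 5 spleen libraries, between 8.24 and 23.8% in 5 liver libraries and between 14.9 and 20.5% in 3 kidney libraries. In the 3 heart libraries with reads it ran from 11.1 to 33.5%. Muscle did not overlap with spleen, liver or kidney, and heart overlapped with all of them. Neither altitude stood apart, with 8.24 to 33.5% at high altitude and 8.41 to 36.4% at low altitude.

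miR-486-5p, the abundant strand of miR-486, was highest in striated muscle. In longissimus muscle it had 16903, 42969 and 29160 RPM in high-altitude goats 1, 2 and 3 and 14304, 20166 and 13738 RPM in the low-altitude goats. In heart it had 23097, 12326 and 53788 RPM at high altitude and 15523, 17791 and 11880 RPM at low altitude. Every heart and muscle library had at least 11880 RPM, and the means of 22873 ± 11342 and 22401 ± 15915 RPM (SD, n = 6) differed by less than their spread.

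Outside striated muscle, miR-486-5p was still abundant in lung, liver and spleen, tissues that hold much blood. In lung it had 18758, 0 and 5054 RPM at high altitude and 6350, 5535 and 7364 RPM at low altitude. In liver it had 2.03, 6139 and 4283 RPM at high altitude and 8659, 9529 and 8311 RPM at low altitude. In spleen it had 11988, 0 and 0 RPM at high altitude and 3624, 3139 and 5771 RPM at low altitude. The low-altitude libraries of each tissue were close together, while the high-altitude ones included values at or near 0 in each and the highest value of the tissue in lung and spleen.

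In kidney miR-486-5p had 591, 0 and 758 RPM at high altitude and 375, 476 and 363.03 RPM at low altitude, the lowest of the 6 tissues. With the counts of the unmatched row added, the tissue means were 22873 RPM in muscle, 22401 in heart, 9972 in lung, 6154 in liver, 5371 in spleen and 536 in kidney. The order of the tissues was the same with and without that row. With it, the liver library at 2.03 RPM was the only one under 363.03 RPM.

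miR-486-3p, the strand that is mostly discarded, was found in quantity in heart and muscle only. In heart it had 62.5, 63.5 and 56.0 RPM at high altitude and 38.2, 47.7 and 48.4 RPM at low altitude (mean 52.7 ± 9.78, SD, n = 6). In muscle it had 50.0, 73.1 and 41.6 RPM at high altitude and 23.9, 41.4 and 31.1 RPM at low altitude (mean 43.5 ± 17.1, SD, n = 6). Every library of these tissues had at least 292 counts of it. Liver had 0 to 69 counts (mean 4.53 RPM), lung 0 to 25, spleen 0 to 6 and kidney 0 to 5, and several of these values lie at or under the 3 counts taken as the floor.

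The 3p strand also made up a larger part of miR-486 in striated muscle. Its share of the counts of both arms was 0.104 to 0.513% in heart (median 0.269%) and 0.143 to 0.295% in muscle (median 0.187%). In spleen it was 0.00342 to 0.0220% in the 4 libraries with reads, and in lung 0.00166 to 0.0416% in 5. All shares of heart and muscle lay above all shares of spleen and lung. Liver (0.0331 to 0.122%) and kidney (0.0270 to 0.109%) lay above all spleen libraries and below all muscle libraries, and overlapped with the highest lung and the lowest heart libraries. In that library, heart of high-altitude goat 3, miR-486-5p was the highest of all 36 and miR-486-3p was not.

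**Figure D3:**
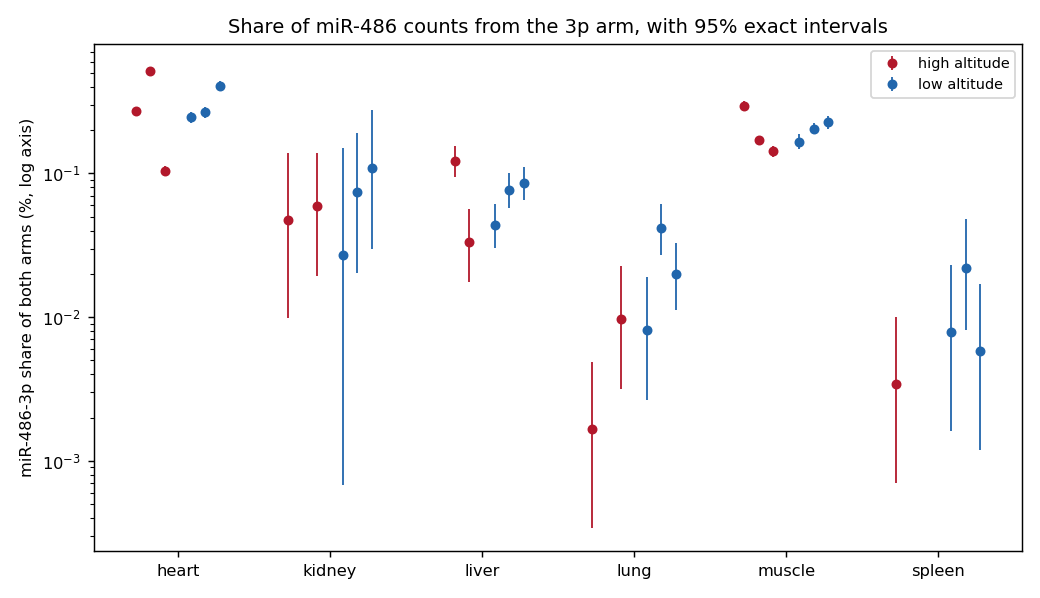
Share of miR-486 counts from the 3p arm (percent, log axis) in the 31 libraries with at least 20 counts of miR-486, by tissue, red for high and blue for low altitude, with 95% exact (Clopper-Pearson) binomial intervals, which cover counting error only. Heart and muscle libraries lie between 0.104 and 0.513%, above all lung and spleen libraries.

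Among libraries with reads of miR-144-3p and at least 20 counts of miR-486-5p, the ratio of miR-144-3p to miR-486-5p differed most between spleen and muscle. Spleen had 190 to 297 counts of miR-144-3p per 1000 of miR-486-5p in 3 libraries, liver 30.1 to 45.7 in 4 and kidney 32.4 to 47.7 in 2. There were 3.04 to 4.37 in 3 heart libraries and 0.403 to 0.901 in 4 muscle libraries. Among these libraries the ranges overlapped between liver and kidney and not between other tissues. Liver of high-altitude goat 1, with 2461 counts of miR-144-3p against 16 of miR-486-5p, is not among them and lies far above all of these ranges. With the unmatched row added to miR-486-5p, spleen had 182.5 to 297 in 5 libraries and kidney 32.4 to 116 in 3, so that 1 more kidney library lay above liver and below spleen. In lung the number was 0 throughout, although miR-486-5p reached 18758 RPM there.

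**Figure D4:**
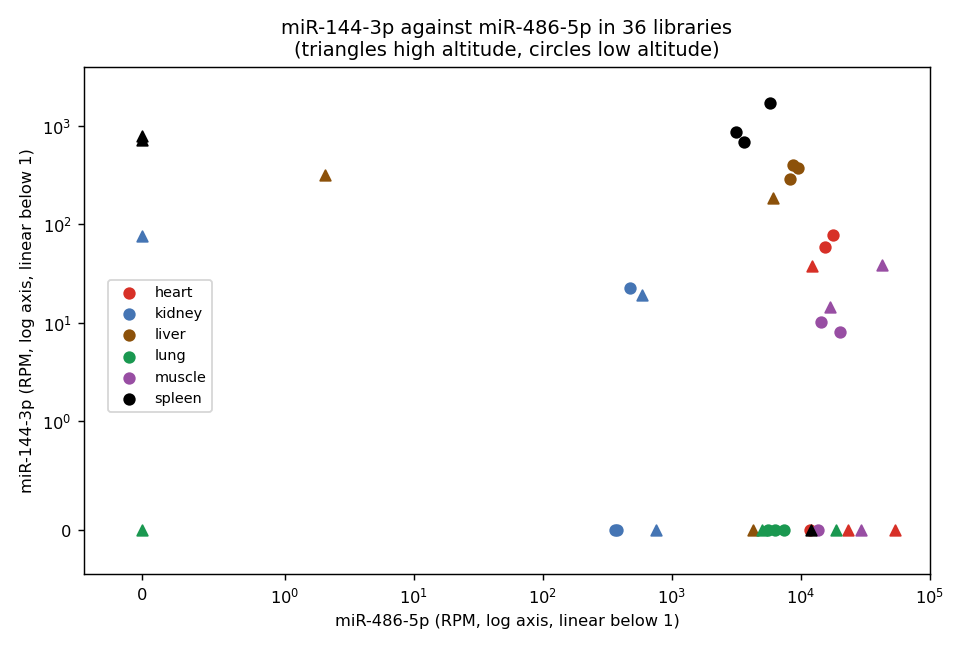
miR-144-3p against miR-486-5p, both in RPM on log axes that are linear below 1, in 36 libraries colored by tissue, with triangles for high and circles for low altitude. Apart from the liver library with 2.03 RPM of miR-486-5p, libraries with reads of both fall by tissue, with spleen highest and muscle lowest in miR-144-3p for a given miR-486-5p, and the libraries at 0 lie on the axes.

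To test the tissue differences, each tissue was compared with the other 5 in a single edgeR fit over all 36 libraries. Of 24 pairs of member and tissue, 12 passed the thresholds (adjusted p under 0.05 and a log2 fold change of at least 1.5 in size), 7 higher and 5 lower. Among all 1391 miRNAs, the share that passed was 10.1% for heart, 12.4% for kidney, 12.1% for liver, 12.4% for lung, 13.7% for muscle and 14.9% for spleen. Those that were higher made up 10.8% for spleen, 9.63% for muscle, 6.61% for heart, 8.91% for lung, 8.99% for liver and 10.1% for kidney, and those that were lower 4.1%, 4.1%, 3.52%, 3.52%, 3.09% and 2.3% in the same order. The median log2 fold change of all miRNAs lay between -0.42 and -0.17 in these contrasts. The members' 12 of 24 lay above each of the shares in either direction.

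miR-486-3p passed in 5 tissues. It was higher in heart by 5.53 on the log2 scale (SE 0.50, edgeR adjusted p = 4.66e-10) and in muscle by 5.64 (SE 0.50, adjusted p = 2.03e-10). It was lower in kidney (log2 fold change -3.86, adjusted p = 8.98e-04), lung (-2.91, adjusted p = 0.00810) and spleen (-4.56, adjusted p = 2.56e-04). Without high-altitude goat 1, which leaves the high-altitude spleens at 0, the calls in kidney and lung were lost (adjusted p = 1), while heart, muscle and spleen passed with any 1 goat left out. In high-altitude libraries alone, heart and muscle passed, and spleen (adjusted p = 0.0619), kidney (0.224) and lung (0.175) did not.

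miR-486-5p passed in muscle (3.20, SE 1.02, edgeR adjusted p = 0.0248), though not without low-altitude goat 1 (adjusted p = 0.0879), 2 (0.146) or 3 (0.0992), with library size only in place of TMM (2.35, adjusted p = 0.121) or in high-altitude libraries alone (adjusted p = 0.292). In heart its log2 fold change was 2.66 (SE 1.04, adjusted p = 0.0996) and in kidney -4.18 (SE 1.67, adjusted p = 0.0993), and neither passed. Both passed in low-altitude libraries alone (adjusted p = 9.98e-07 and 5.41e-07), without high-altitude goat 2 (0.0179 and 0.0372) and without the libraries under 20 counts (4.59e-08 and 3.20e-08). Heart also passed without high-altitude goat 1 (2.5e-04) and kidney with DESeq2 (9.73e-04). With the unmatched row added, all 3 passed, with 2.73 in muscle (SE 0.43, adjusted p = 1.35e-05), 2.54 in heart (SE 0.44, adjusted p = 5.26e-05) and -4.05 in kidney (SE 0.69, adjusted p = 5.45e-05). The standard errors were smaller with that row added, and the directions were as before. In spleen, miR-486-5p was called as lower in 1 of the 18 settings run, and in liver and lung in 0.

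Both arms of miR-144 passed as higher in spleen and liver and as lower in lung. The edgeR adjusted p in spleen was 3.85e-04 for 3p and 8.33e-04 for 5p, in liver 0.00980 and 0.0377, and in lung 0.00499 and 0.00534. Since lung is at 0 throughout, the fitted folds with it depend on the prior count and are not given. Without the lung libraries, miR-144-3p was higher in spleen by 3.92 (SE 1.23, adjusted p = 0.0238) and miR-144-5p by 3.17 (SE 1.10, adjusted p = 0.0431). In liver, the values without lung were 2.03 (adjusted p = 0.445) and 1.20 (adjusted p = 0.956), so the calls in liver did not hold without lung. When the libraries at 0 were left out as well, miR-144-3p in liver passed (1.64, edgeR adjusted p = 0.00158) and miR-144-5p did not (0.84, adjusted p = 0.116). The calls in lung were lost without goat 2 of either population (adjusted p = 1), and those in liver without high-altitude goat 1 (adjusted p = 0.0608 for 3p and 0.0917 for 5p). miR-144-5p in liver was also lost without low-altitude goat 1 (adjusted p = 0.112) or 3 (0.0932) and in low-altitude libraries alone (0.0581). The calls in spleen held with any 1 goat left out. In high-altitude libraries alone, all 6 calls of miR-144 were lost, with an adjusted p of 0.0724 (3p) and 0.0854 (5p) in spleen. With goat as a block, which the shared animals allow, miR-144-5p in liver had an adjusted p of 0.0590 and the other 11 calls held.

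The order of the tissues was also tested within goats, in log2(RPM + 1), with an exact sign-flip permutation test for each of 20 pairs of neighbours. After adjustment over the 20 pairs, 0 passed 0.05 (lowest adjusted p = 0.25), and 2 had an unadjusted p of 0.031, the smallest that 6 goats allow. These were muscle over liver for miR-486-3p (difference 3.27 ± 1.40, SD, higher in 6 of 6 goats) and heart over lung for miR-486-5p (3.49 ± 5.06, SD, higher in 6 of 6 goats). The latter includes the lung library of high-altitude goat 2 listed at 0. With the unmatched row added, that lung lay above the heart of the same goat, and the difference was 1.16 ± 1.33 (SD, higher in 5 of 6 goats, exact p = 0.0938). For miR-144-3p, spleen was higher than liver in 5 of 6 goats, with a wide spread (difference 1.32 ± 5.72, SD, exact p = 0.531) that includes a spleen library at 0 in one goat and a liver library at 0 in another. Heart was higher than muscle in miR-486-3p in 5 of 6 goats (0.33 ± 0.31, SD, exact p = 0.0938), which did not pass and turned to -0.061 with TMM-scaled CPM, and muscle over heart in miR-486-5p was 0.12 ± 0.92 (SD, exact p = 0.812).

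The tissue specificity index, which is 0 for equal levels and 1 for a miRNA found in 1 tissue only, was 0.920 for miR-144-3p, 0.905 for miR-144-5p, 0.812 for miR-486-3p and 0.648 for miR-486-5p. Lower values were found in 61.8%, 58.7%, 41.5% and 19.1% of all miRNAs, respectively. By this measure miR-144 was a little more restricted than the typical miRNA of these tissues and miR-486-5p was among the broader ones.

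The altitudes were then compared within each tissue, 3 goats against 3, with edgeR. Of the 22 pairs of member and tissue with reads, 0 passed the thresholds (lowest edgeR adjusted p = 0.746), and 0 had an unadjusted p under 0.05. The share of all 1391 miRNAs that passed was 0% in heart, kidney, liver and lung, 0.0719% in muscle and 0.144% in spleen, so calls were rare for any miRNA in this fit. DESeq2 and edgeR's exact test also called 0 of the pairs. DESeq2 called more miRNAs in all, 10 to 15 of the 1391 as higher and 8 to 22 as lower in each tissue.

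For miR-486-3p, the goats of the 2 altitudes did not overlap in heart, muscle and lung. In heart the level was 60.7 ± 4.08 RPM at high and 44.8 ± 5.73 RPM at low altitude (SD, n = 3), with a log2 fold change of 0.28 (SE 0.27, edgeR adjusted p = 0.943). That fold change depended on scaling, with 0.44 with library size only and 0.016 in 1 fit over all 36 libraries. All high-altitude libraries lay above all low-altitude ones in heart for 8.05% of all miRNAs. In muscle the level was 54.9 ± 16.3 against 32.2 ± 8.83 RPM (SD, n = 3), a log2 fold change of 0.83 (SE 0.45, edgeR adjusted p = 0.799), and the same separation was found for 3.24% of miRNAs.

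In muscle the separation of miR-486-3p was narrow, since the lowest high-altitude library had 41.6 RPM and the highest low-altitude one 41.4 RPM. The 12 striated muscle miRNAs summed to 366507 to 493981 RPM in high-altitude and 513105 to 555440 RPM in low-altitude muscle. This sum was thus lower at high altitude, where miR-486-3p was higher. The sum of the 17 leukocyte miRNAs was lower too, with 5909 to 7938 RPM at high and 8878 to 16060 RPM at low altitude. The median log2 fold change was 0.27 over the 12 muscle rows and 0 over the 17 leukocyte rows. Most rows of these lists were therefore not lower, unlike the sums. The part of either list in the result was not tested. In lung miR-486-3p had 0, 3 and 5 counts at high altitude against 5, 15 and 25 at low altitude (a tie at 5 counts that is 0.490 and 0.516 RPM, 0.267 ± 0.248 against 1.43 ± 0.895 RPM, SD, n = 3, log2 fold change -1.88, SE 1.55, edgeR adjusted p = 0.896). There 5.97% of miRNAs had all high-altitude libraries below all low-altitude ones, and the counts were near the floor. The 0 is goat 2, in which the 3p arm of the unmatched precursor had 15 counts, and with these added the groups overlap.

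For miR-486-5p, the mean in muscle was 29677 ± 13041 RPM at high and 16070 ± 3559 RPM at low altitude (SD, n = 3), with overlapping groups and a log2 fold change of 0.90 (SE 0.42, edgeR adjusted p = 0.746). In heart it was 29737 ± 21514 against 15065 ± 2982 RPM (log2 fold change 0.76, SE 0.52, adjusted p = 0.797), also with overlap. In both tissues the high-altitude goats were the more variable. The highest of them was goat 3 in heart and goat 2 in muscle.

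In liver miR-486-5p was lower in all 3 high-altitude goats than in any low-altitude goat, 3475 ± 3147 against 8833 ± 627 RPM (SD, n = 3). The log2 fold change was -1.33 (SE 1.67, edgeR adjusted p = 1), and 5.97% of miRNAs separated in this direction in liver. Without the library with 16 counts it was -0.75 (SE 0.34, adjusted p = 0.978). miR-144-3p in liver had a log2 fold change of -1.02 (SE 1.83, adjusted p = 1), with overlapping groups. It was -0.33 without the library at 0, of high-altitude goat 3, and -2.28 without high-altitude goat 1. The hepatocyte miRNA miR-122 ran from 6201 to 179959 RPM in the high-altitude livers and from 20295 to 53582 RPM in the low-altitude ones, and its part was not tested.

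In spleen, lung and kidney the comparison of miR-486-5p turned on the libraries at 0. As listed, the log2 fold changes were 0.11 in spleen (SE 3.09), 0.59 in lung (SE 2.24) and 0.46 in kidney (SE 2.02), each with an edgeR adjusted p of 1. With the unmatched row added they were 0.72 (SE 0.61, adjusted p = 0.826), 1.12 (SE 0.41, adjusted p = 0.832) and 0.76 (SE 0.51, adjusted p = 0.958). In kidney the summed levels no longer overlapped, with 591 to 758 RPM at high and 363.03 to 476 RPM at low altitude, a separation found for 1.73% of all miRNAs there. Only high-altitude goat 2 changed there, from 0 to 656 RPM. The unmatched row was singled out for its counts where miR-486-5p is at 0, so this separation is a description and no test. The 12 striated muscle miRNAs moved with the summed level in kidney, with 1386 to 2254 RPM at high and 184.8 to 603 RPM at low altitude, and their part in the result was not tested. In lung the levels of miR-486-5p with the unmatched row added ran from 5054 to 18758 RPM at high and from 5535 to 7365 RPM at low altitude.

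Leaving those libraries out instead gave log2 fold changes of 1.17 in lung (adjusted p = 0.754) and 1.05 in kidney (adjusted p = 1). In spleen it gave 1.84, where 1 high-altitude library then remained, too few for a test. Leaving out high-altitude goat 1 from spleen had the opposite effect. Its 11988 RPM was the only non-zero value of its group, and without it miR-486-5p was called as lower (edgeR adjusted p = 0.0117), the only altitude call for a member under the alternatives that were run. The high-altitude group is then at 0 throughout, so that its fitted fold depends on the prior count and is not given here, and the same 2 libraries hold 31965 and 47522 counts of the unmatched row.

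**Figure D5:**
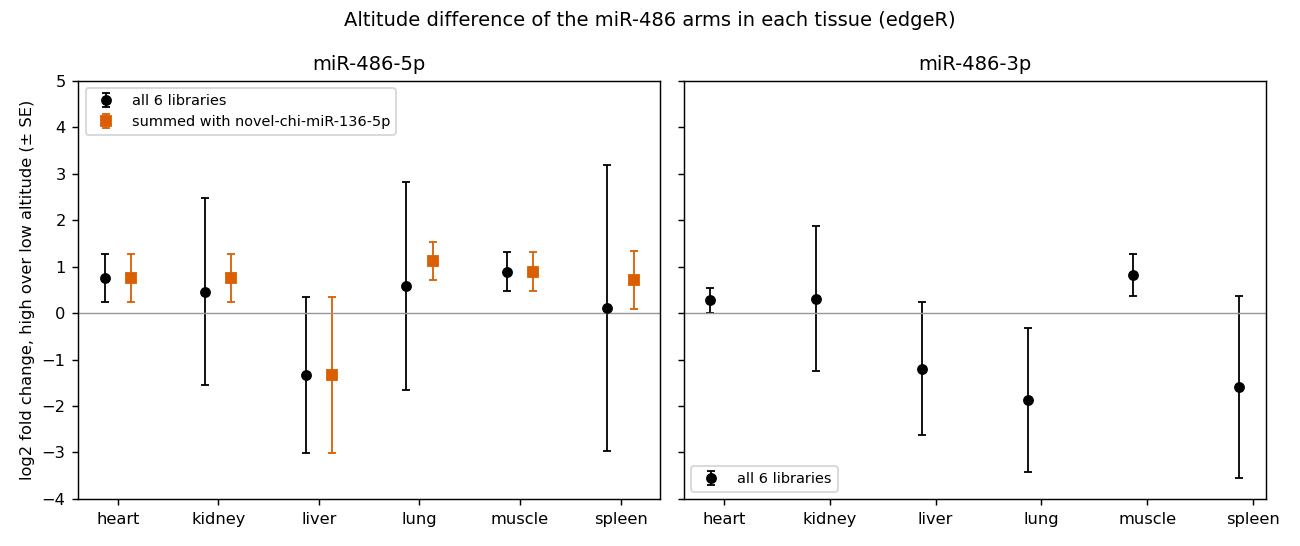
Log2 fold change of high over low altitude (± SE, edgeR, 3 goats against 3 per tissue) for miR-486-5p as listed (black circles) and with the unmatched row added (orange squares), and for miR-486-3p. With that row added, the standard error fell from 3.09 to 0.61 in spleen and from 2.24 to 0.41 in lung, and in no tissue does either fit pass the adjusted threshold.

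For miR-144-3p in spleen the log2 fold change was -1.28 (SE 1.93, edgeR adjusted p = 1), and -0.69 (SE 0.45, adjusted p = 0.865) without the library at 0. Among libraries with reads, high-altitude spleens had 724 and 788 RPM and low-altitude spleens 690 to 1717 RPM. Over all tissues with reads, the fitted log2 fold changes of miR-144-3p ran from -2.02 to 1.92 and those of miR-144-5p from -0.88 to 1.48. All of these had an adjusted p of 1. The ends for miR-144-3p were in heart and kidney, which have libraries at 0. Under the alternatives, its values rose to -1.09 in heart and fell to 0.92 in kidney. Without high-altitude goat 2, the high-altitude hearts are at 0 throughout, so that the fitted fold depends on the prior count and is not given.

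Whether the altitude difference of a member varied between tissues was tested by the interaction of tissue and altitude in the fit over all libraries (edgeR F test with 5 degrees of freedom). It passed an adjusted p of 0.05 for 0 of the 4 members and for 0.216% of all miRNAs. The unadjusted p was 0.859 for miR-144-3p, 0.974 for miR-144-5p, 0.502 for miR-486-3p and 0.985 for miR-486-5p.

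Averaged over the 6 tissues of each goat as log2(RPM + 1), miR-486-5p was 9.62 ± 2.34 in high-altitude and 12.36 ± 0.06 in low-altitude goats (SD, n = 3). The difference of -2.75 had an exact two-sided permutation p of 0.1, the smallest that 3 goats against 3 allow. The share of all miRNAs whose goat means separate is not given here. With the unmatched row added, the high-altitude mean was 12.24 ± 0.92 and the difference -0.12 (exact p = 1). High-altitude goat 1, which has no library at 0 but the liver library with 16 counts, was at 11.18 either way, below the low-altitude goats at 12.30 to 12.43. The separation of the goats was thus lost once the libraries listed at 0 were filled from that row.

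The corresponding differences were -1.04 for miR-144-3p (exact p = 0.5), -0.51 for miR-144-5p (exact p = 0.7) and -0.24 for miR-486-3p (exact p = 0.3). With a pseudocount of 0.1 in place of 1 RPM, that of miR-486-3p was -0.90 and the goats did not overlap (exact p = 0.1, the smallest possible). In spleen and kidney it had at most 6 counts. For miR-144-3p the goat means ran from 1.604 to 5.65 at high and from 3.16 to 5.40 at low altitude. Goat 2 was the highest of both populations, and goat 3, with most tissues at 0, the lowest of both. Among ratios between members, the difference on the log2 scale was -0.53 for miR-144-3p over miR-144-5p (exact p = 0.4) and 1.71 for miR-144-3p over miR-486-5p (exact p = 0.8). For miR-486-5p over miR-486-3p it was -2.51, and the goats of the altitudes did not overlap (exact p = 0.1, the smallest possible). With a pseudocount of 0.1 RPM they overlapped (exact p = 0.2). Without high-altitude goat 2, which has 3 of the 4 libraries at 0, it was -1.05. That ratio uses the libraries in which miR-486-5p is listed at 0 and was not computed with the unmatched row. For these goat means and ratios, no share over all miRNAs is given beside the lack of overlap.

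Other miRNAs that are abundant in red cells were examined beside the members. The list held 30 rows, among them miR-16a-5p, miR-101-3p, miR-92a-3p and miR-25-3p, and summed to 20823 to 44677 RPM in spleen and 28045 to 55550 RPM in liver. In lung it summed to 12247 to 42092 RPM, although miR-144 was at 0 there. Heart (11258 to 17201 RPM) and muscle (11529 to 21384 RPM) were low, and kidney ran from 6468 to 29280 RPM.

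Against the other tissues, 7 of these 30 rows were higher and 2 lower in spleen, with a median log2 fold change of 0.66 against -0.31 for all miRNAs, of which 10.8% were higher and 4.1% lower. In liver 2 of the 30 were higher and 0 lower (median 0.49 against -0.17), where 8.99% of all miRNAs were higher, so the count was no larger than that of miRNAs in general. In muscle 0 were higher and 1 lower (-0.57 against -0.42), where 4.1% of all miRNAs were lower. In lung, where miR-144 was at 0, 4 were higher and 1 lower (-0.087 against -0.39). There 8.91% of all miRNAs were higher and 3.52% lower. In kidney 3 were higher and 1 lower (-0.59 against -0.38), where 10.1% of all miRNAs were higher and 2.3% lower. The 2 that were higher in liver were miR-101-3p and miR-20b-3p. miR-101-3p, which is also made by other cells, had 20105 ± 7288 RPM in liver and 4995 ± 1540 RPM in spleen (SD, n = 6), while miR-25-3p had 2622 ± 222.8 and 4356 ± 1301 RPM.

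Spleen differed in its white cell miRNAs too. Of 17 leukocyte rows, such as miR-142-5p and miR-181a-5p, 10 were higher and 0 lower in spleen, with a median log2 fold change of 2.42, and they summed to 57877 to 113058 RPM there against 35194 to 57210 RPM in lung. Their part in the level of miR-144 in spleen was not tested. In heart and muscle, where miR-486 was highest, 10 and 12 of the 12 striated muscle rows were higher and 0 lower. Of the 30 red cell rows, 2 were higher and 3 lower in heart, where 6.61% of all miRNAs were higher and 3.52% lower.

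Between altitudes, 0 rows of any of these lists passed in any tissue. The 30 red cell rows had medians between -0.35 and 0.03 on the log2 scale, against 0 for all miRNAs, and 1 to 4 of them had an unadjusted p under 0.05 in each tissue, where 59 to 89 of all 1391 did. A list of 13 rows that fall as red cells mature (miR-221, miR-222, miR-155, miR-223, miR-24 and miR-150) had medians between -0.18 and 0.51 and 1 to 3 rows with an unadjusted p under 0.05. Its summed level did not overlap between the altitudes in 5 tissues. In liver, 5.97% of single miRNAs lay lower at high altitude without overlap. For the other tissues, the share in the direction of this sum is not given here, so their lack of overlap is not set against all miRNAs. The sum was lower at high altitude in heart (4717 to 5971 against 7576 to 12298 RPM), kidney (1807 to 2077 against 2677 to 6206 RPM) and liver (2605 to 3355 against 4282 to 5491 RPM). It was higher in lung (7320 to 9526 against 6759 to 7084 RPM) and spleen (8906 to 10272 against 4592 to 7430 RPM). A single row, miR-24-3p, averaged 6553 RPM in heart, 2312 in kidney and 3108 in liver and so made up most of the sum there, and the median over the 13 rows was positive in heart (0.12) and liver (0.37), the other way from the sum. Several of these miRNAs are also leukocyte miRNAs. miR-210, the hypoxia miRNA, was at 0 in 5 of the 6 libraries of each of heart, muscle and spleen and summed over its arms to at most 53.6 RPM in any library.

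Finally, the miRNAs whose levels ran most like those of the members over the 36 libraries were listed by Spearman correlation of log2(RPM + 1), among 289 named miRNAs with a mean of at least 10 RPM. These are descriptions, since the libraries share goats, tissues and totals. For miR-144-3p they were miR-199a-5p (rho 0.725), let-7g-3p (0.688) and miR-1307-5p (0.675). For miR-144-5p they were miR-199a-5p (0.717), let-7g-3p (0.669) and let-7f-3p (0.631).

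For miR-486-3p the most alike were miR-499-3p (0.738), miR-1-3p (0.738) and miR-133b-5p (0.703), which are all striated muscle miRNAs. For miR-486-5p they were miR-628-3p (0.734), miR-1-3p (0.716) and miR-133b-5p (0.659). The row named miR-133b-5p has the same counts as miR-133a-3p in every library, so these cannot be told apart. Among the members, the arms of miR-144 had a rho of 0.985 and the arms of miR-486 one of 0.858, while miR-144-3p and miR-486-5p had one of -0.239.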

How the data were processed

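Small RNA libraries (Illumina TruSeq) of 6 tissues from each of 6 goats were analysed, 36 in all. The authors trimmed the reads, mapped them with Bowtie to the goat genome ARS1 with no mismatch, identified and quantified mature miRNAs with miRDeep2 against miRBase, and dropped those that never reached 3 reads. What they deposited are raw counts for each mature miRNA in 1 library, with no scaling. The submitters' processing notes also name CASAVA 1.8. How reads that match several miRNAs were assigned is not given in the sources used here. Group and replicate came from the sample titles. The same replicate number was taken as the same goat in every tissue of a population, which the titles do not state.

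RPM were computed from library totals of 7108635 to 14407748 counts. Altitudes were compared within each tissue with edgeR 4.0.16 (TMM, glmQLFit and glmQLFTest) in R 4.3.3 on all 1391 miRNAs, and tissues in 1 fit over the 12 groups. Calls needed a Benjamini-Hochberg adjusted p below 0.05 and a log2 fold change of 1.5 or more in size. Goat means over tissues were compared by an exact permutation test over 20 assignments, and neighbouring tissues by an exact sign-flip test over 64, both two-sided, with a pseudocount of 1 RPM. Intervals on shares are exact binomial (95%) and cover counting error only. Tissues with the same goat are paired by the design. Same-numbered goats of the 2 populations are different animals, and 7 of 18 correlations of their deviations were over 0.1 (range -0.46 to 0.51), so they were not treated as pairs. In heart these correlations were 0.51, 0.35 and 0.45. With replicate number as a block, 0 pairs were called in heart or any other tissue.

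The members and marker lists were chosen with earlier results of these data known. Every member was named in every tissue, as were the 3 miRNAs most correlated with each member and up to 4 examples of each list, those with the highest mean RPM. Rows singled out beside these, such as the row called unmatched, were chosen after their values were seen. The lists were miRNAs rich in red cells, miRNAs that fall in red cell maturation, and leukocyte, striated muscle, hepatocyte, endothelial (miR-126) and hypoxia (miR-210) miRNAs. The alternatives were DESeq2 1.42.0, edgeR's exact test, RLE factors, library size only, filterByExpr, members left out of the normalization, identical rows kept once, 1 fit over all libraries, a replicate block, no minimum fold change, 1 altitude only, another pseudocount or scale, and each goat left out in turn. Added after seeing the data were fits with the unmatched row summed into miR-486-5p, without libraries under 20 counts in a tissue that reaches 100, and without lung. Before use, the edgeR fits were tested on simulated data in which the changed miRNAs were known. Python 3.11.15 with NumPy 2.4.6, SciPy 1.17.1, pandas 2.3.3 and Matplotlib 3.10.9 was used for the rest.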

Additional observations from a re-analysis of the deposited data

Results flagged for a closer look

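miR-486-3p separated the altitudes in opposite directions in different tissues. In heart all 3 high-altitude goats lay above all 3 low-altitude goats, by 15.9 RPM on average, and in muscle by 22.8 RPM, while in lung all 3 lay below in RPM, at 0 to 5 counts against 5 to 25, with 1 library of each altitude at 5 counts (0.490 and 0.516 RPM). The same separation was found for 8.05% of all miRNAs in heart, 3.24% in muscle and 5.97% in lung. In muscle the gap was narrow, with 41.6 RPM in the lowest high-altitude and 41.4 RPM in the highest low-altitude library. The 0 in lung is high-altitude goat 2, in which the 3p arm of the unmatched precursor had 15 counts, and with these added the lung groups overlap. The difference between these tissues was not tested pair by pair, and the interaction over all 6 tissues gave an edgeR p of 0.502 for miR-486-3p. The unmatched row, which is no member, reached 173373 counts in lung of high-altitude goat 2, where miR-486-5p is listed at 0. It stood at or above 6324 counts in 4 high-altitude libraries and at 3 counts or fewer in the 18 low-altitude libraries.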

How the results depend on the processing

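No member was called between altitudes under edgeR's exact test, DESeq2, RLE factors, library size only, filterByExpr or the other alternatives of the fit, and with each goat left out in turn the number called ran from 0 to 1, the 1 being miR-486-5p in spleen without high-altitude goat 1. With replicate number as a block, which does not mark shared animals, 0 pairs were called and miR-486-5p turned sign in kidney (-0.52), lung (-0.72) and spleen (-14.36). The value of -14.36 comes from a high-altitude group with 2 of 3 libraries at 0 and is no measured fold. With library size only, miR-486-5p was at -0.064 in spleen. With 1 goat left out, the log2 fold change of miR-486-5p ran from -18.38 to 0.70 in spleen, from -0.64 to 1.17 in lung and from -0.056 to 1.05 in kidney. The value of -18.38 sets a group at 0 in both libraries against the other, so the prior count sets it and it is no measured fold. It kept its sign in muscle (0.66 to 1.23), heart (0.08 to 1.07) and liver (-1.68 to -0.75). The cause of these shifts was not tested beyond the libraries at 0.

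Tissue calls numbered 12 of 24 in all libraries and 9 to 12 with 1 goat left out. They numbered 11 with goat as a block, 11 with library size only, 13 in low-altitude libraries alone and 2 in high-altitude libraries alone. With DESeq2 there were 15, without libraries under 20 counts 16, and with the unmatched row summed into miR-486-5p 14. Without lung, where 20 pairs remain, there were 7. The median of all miRNAs in the liver contrast moved from -0.17 to 0.17 with library size only. With 1 goat left out, the goat means differed by -2.19 (without high-altitude goat 2) to -0.17 (without high-altitude goat 3) for miR-144-3p, -1.40 to 0.037 for miR-144-5p, -3.53 to -1.40 for miR-486-5p and -0.41 to -0.10 for miR-486-3p, and the ratios by -0.79 to 3.14 for miR-144-3p to miR-486-5p, -3.38 to -1.05 for miR-486-5p to miR-486-3p and -0.80 to -0.21 for miR-144-3p to miR-144-5p. Depth limits miR-486-3p outside heart and muscle, where it had at most 69 counts.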
